A study of Mus musculus with 6 samples.

Results

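The DNA replication genes are 29 genes that license origins, activate the helicase, build the replication fork, join Okazaki fragments, supply deoxynucleotides, start S phase or rebuild chromatin behind the fork. They were taken by symbol from the deposited table of 27179 rows, where each symbol matched 1 row. The list was fixed by gene name, but with earlier results of these data known, so counts over it carry no test. All 29 passed the filter on low values that left 14777 genes for testing. Mean transcript levels of all 29 were lower in Zmat3 knockout cells than in control cells, at 44.1% to 95.1% of the control mean. The median log2 fold change over the 29 genes was -0.39, beside a median of 0.01 over all genes tested. The largest differences were those of Rrm2, Cdc6, Fen1 and Tyms, and the smallest were those of Rfc3, Cdt1, Pold1 and Mcm6. Limma called none of the 29 at an adjusted p under 0.05, and DESeq2 called Fen1 alone. In bulk RNA, fewer cells in S phase and less RNA of these genes per cell cannot be told apart.

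Eukaryotic cells copy their genome once per cycle by first loading the ring-shaped MCM helicase onto origins with the help of Cdc6 and Cdt1, a step called licensing. At the start of S phase Cdc45 and the GINS complex bind the loaded ring and turn it into an active helicase, and polymerases alpha, delta and epsilon then copy the strands with the sliding clamp Pcna. Many of these genes are transcribed by E2F factors when the Rb proteins release them, so their transcripts are used as a mark of proliferating cells.

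Total RNA was extracted from mouse embryonic fibroblasts of the genotype Cas9+;E1A;HrasG12V, which both groups shared, and libraries prepared from it were sequenced. The Zmat3 knockout group held 3 libraries, made with the guides sgZmat3 52.6, 51.5 and 54.8 for knockout libraries 1, 2 and 3. The control group held 3 libraries with the negative control guides EV, SPA and ACOCA for control libraries 1, 2 and 3. Guides were delivered by lentivirus, and RNA was taken 10 days after selection of the cells that carried them. Zmat3 encodes an RNA-binding protein with zinc fingers and is induced by p53. Each library therefore stands for 1 guide in a pool of selected cells, in which edited and unedited cells may be mixed. E1A is an adenoviral protein that binds the Rb proteins and releases E2F, and the cells of all 6 libraries carried it. The labels do not say whether the cells shared a starting culture, so p-values measure only the spread between these libraries.

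The promoters show how E2F motifs are placed in some of the genes. The words TTTCCCGC, TTTCGCGC, TTTGCCGC and TTTGGCGC, all forms of the E2F consensus, were searched on both strands in the 250 bases before each RefSeq start site (RefSeq promoter table, GRCm38.p6). Of 24 DNA replication genes with a window, 7 held a word, namely Mcm5, Mcm6, Mcm7, Cdc6, Pola1, Rfc3 and Uhrf1. Over 17492 protein-coding genes with a window, 475 (2.72%) held a word. Stretches from the promoters of 5 of the 7 genes are printed here, because they hold the motif clear of annotated exons. The stretches of Cdc6 and Uhrf1 lie inside the annotated gene spans given below, not upstream of them. That of Uhrf1 precedes the later of its RefSeq start sites, and the window before the earlier site held no word. Each stretch is written 5′ to 3′ on the strand of its gene, with the motif words in capitals.
Mcm5, chr8:75109336-75109387, plus strand: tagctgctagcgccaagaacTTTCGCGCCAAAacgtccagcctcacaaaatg
Mcm6, chr1:128359725-128359835, minus strand: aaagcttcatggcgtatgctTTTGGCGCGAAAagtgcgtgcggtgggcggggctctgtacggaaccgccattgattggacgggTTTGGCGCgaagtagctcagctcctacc
Cdc6, chr11:98907993-98908040, plus strand: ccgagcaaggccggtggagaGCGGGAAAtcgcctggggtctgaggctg
Pola1, chrX:93632266-93632313, minus strand: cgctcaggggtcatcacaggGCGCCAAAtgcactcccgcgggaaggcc
Uhrf1, chr17:56304108-56304155, plus strand: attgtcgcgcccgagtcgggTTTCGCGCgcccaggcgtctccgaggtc
In Mcm5, and at the first of the sites in Mcm6, 2 words overlap on opposite strands and read as a near-palindrome. A match is a description of letters and does not show binding, and windows without a word were not examined for other E2F sites. The 7 genes with a word ran from Cdc6, with a log2 fold change of -1.07, to Rfc3, with -0.07.

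Between 53253055 and 69515101 reads were assigned to genes in the knockout libraries, and between 60730974 and 90256118 in the control libraries. All values below are normalised read counts (reads divided by 1 size factor per library), and the 29 genes had between 1112 and 59635 of them in every library. Zmat3 itself stood at 11421, 4912 and 4960 normalised counts in knockout libraries 1, 2 and 3, against 17169, 15869 and 17434 in control libraries 1, 2 and 3. Knockout library 1 thus kept 67.9% of the control mean of Zmat3, and knockout libraries 2 and 3 kept 29.2% and 29.5%. The limma log2 fold change of Zmat3 was -1.36 (SE 0.33, limma adjusted p = 0.371), and -1.34 (SE 0.37) without control library 3. DESeq2 gave an adjusted p of 0.0444 with all 6 libraries, a call that was lost without control library 3 (adjusted p = 0.210), control library 2 (0.169), knockout library 2 (0.374) or knockout library 3 (0.611). Control library 3 stood apart from the other 5 libraries, so the log2 fold change of each of the 29 genes is given with and without it. Among fibroblast markers Vim and Fn1 were high in all libraries, whereas Col1a2 and Thy1 lay between 0 and 14.2 normalised counts and Lum was at 0. Epcam, an epithelial marker, stood at 22386, 25182 and 19711 in the knockout libraries and at 24986, 18992 and 3574 in the control libraries. The summed level of 8 leukocyte markers, 1 of which (Cd68) reached a mean of 10, ran from 7172 to 9246 in knockout and from 828 to 6055 in control, while Ptprc and Adgre1 were near 0 and Tyrobp was at 0. The summed level of 8 epithelial markers, 5 of which reached a mean of 10, ran from 20400 to 25419 in knockout and from 12464 to 29620 in control, with Krt5 at 0. The 12 fibroblast markers, 9 of which reached that mean, summed to between 242532 and 271632 in knockout and between 225258 and 251062 in control. The 6 endothelial and 6 neural markers, 3 and 4 of which reached it, summed to 482 to 746 and 9533 to 12192 in knockout, and to 196 to 639 and 7335 to 10605 in control. The part of these markers in the results was not tested.

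The limma test of log2(normalised count + 1) called 0% of all genes lower in knockout at an adjusted p under 0.05, and none of the 29. Limma had 1948 of 14777 genes at an unadjusted p under 0.05, among them 12 of the 29. EdgeR called 0 genes on the recovered reads, with 1943 at an unadjusted p under 0.05, while DESeq2 called 129. The limma adjusted p was 0.371 for 15 of the 29 genes, and ran up to 0.778 for Rfc3. Negative log2 fold changes made up 29 of 29 among the DNA replication genes, against 48.4% over all genes tested. For 16 of the 29 genes every knockout library lay below every control library, against 14.4% of all genes. Without control library 3 the count was 29 negative of 29, beside 49.3% of all genes, and 20 genes had knockout libraries entirely below control libraries 1 and 2, beside 17.6% of all genes. The median of the 29 genes was then -0.32, beside 0.01 over all genes.

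**Figure D1:**
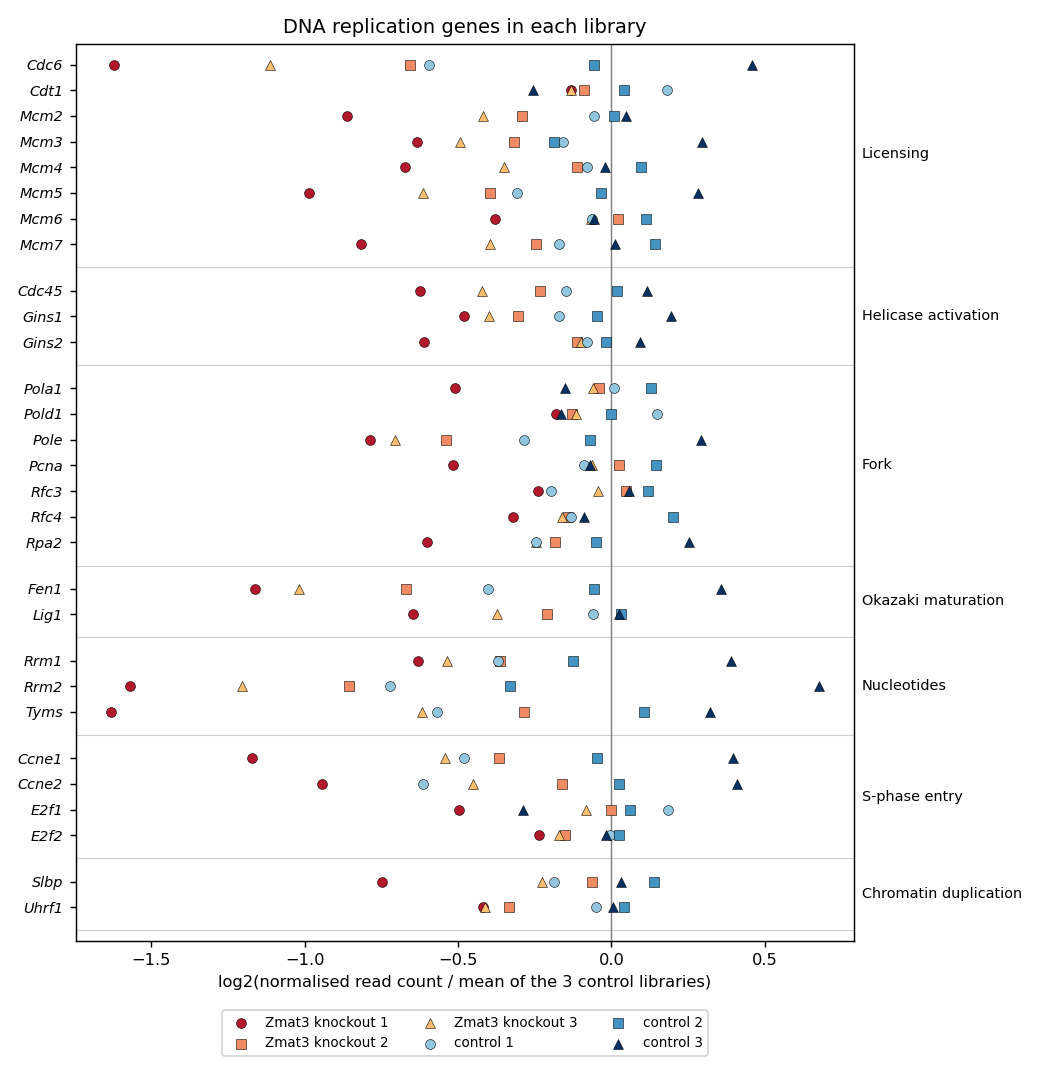
Normalised count of each of the 29 genes in each of the 6 libraries, on the x axis as the log2 ratio to the mean of the 3 control libraries, with genes on the y axis grouped by step. Knockout library 1 is the leftmost point for 28 of the 29 genes, and control library 3 is the rightmost for 15.

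Knockout library 1 was the lowest of all 6 libraries for 28 of the 29 genes, whereas it was the lowest for 24.3% of all genes tested. The exception was Cdt1, which was lowest in control library 3. Within the knockout group the order was the same for 27 genes, with library 1 below library 3 and library 3 below library 2. The median gene stood at 64.6% of its control mean in knockout library 1, at 86.4% in library 2 and at 76.0% in library 3. Knockout library 1 is also the library that kept most Zmat3 transcript. Knockout library 2 lay below every control library for 16 genes and knockout library 3 for 22. Among the control libraries, library 3 was the highest of all 6 for 15 genes, library 2 for 11 and library 1 for 3, and 36.8% of all genes tested were highest in control library 3. Control library 1 was the lowest control for 23 genes, and knockout library 2 exceeded it for 9. Apart from the shares given above, the counts in this paragraph were not set beside all genes and only describe the 29.

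Knockout library 1 was the lowest knockout library for each of the 29 genes, so leaving it out could only raise their log2 fold changes. Each of the 29 then came nearer to 0. The median over the 29 was then -0.29, and 28 were negative, with Rfc3 at 0.01. Leaving out control library 3 brought 20 genes nearer to 0 and moved 9 farther from it. Without both of these libraries the median was -0.22, and Rfc3 was again the exception, at 0.04.

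**Figure D2:**
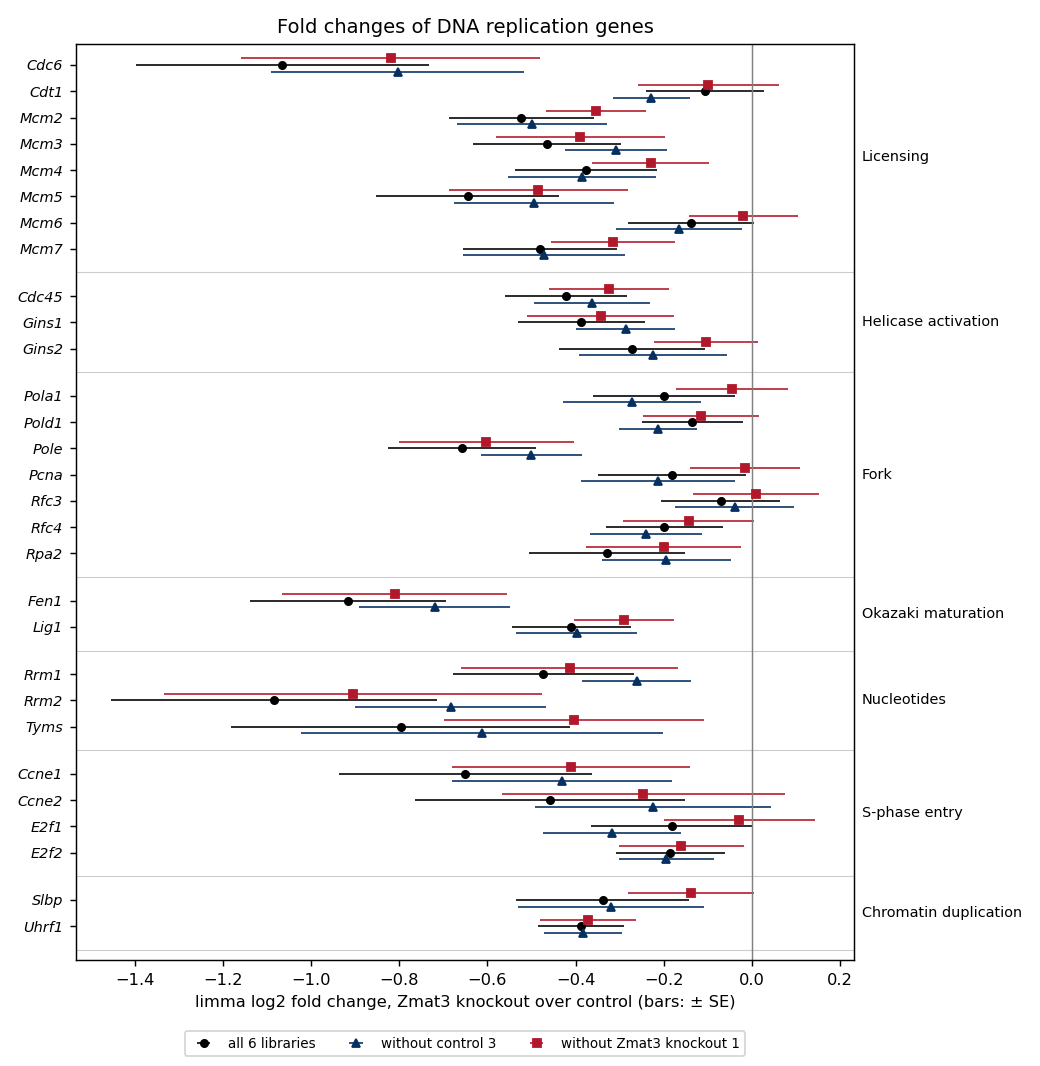
Limma log2 fold change of each gene, knockout over control, with bars of 1 SE, from all 6 libraries (black), without control library 3 (blue) and without knockout library 1 (red). Rrm2 and Cdc6 lie farthest from 0 with all 6 libraries, and Rfc3 crosses 0 without knockout library 1.

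In the licensing step all 8 genes were negative on the log2 scale, at a median of -0.47 (-0.43 without control library 3). For 6 of them every knockout library lay below every control library, beside 14.4% of all genes. Neither limma nor DESeq2 called any of the 8, either with all 6 libraries or without control library 3. Cdc6, an ATPase that helps load the helicase ring at origins, differed most among them. It had 2247, 4386 and 3197 normalised counts in knockout libraries 1, 2 and 3, against 4573, 6648 and 9501 in control libraries 1, 2 and 3. The groups did not overlap, but knockout library 2 lay just under control library 1, and the values spread 1.95-fold within knockout and 2.08-fold within control. The limma log2 fold change of Cdc6 was -1.07 (SE 0.33), and -0.80 (SE 0.29) without control library 3, with DESeq2 adjusted p-values of 0.09999 and 0.0726. In GRCm38 Cdc6 (Entrez gene 23834) spans chr11:98907801-98923940 on the plus strand.

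Cdt1, the partner of Cdc6 in loading the ring, did not share this difference. Its normalised counts were 9124, 9404 and 9127 in the knockout libraries and 11340, 10280 and 8372 in the control libraries. Control library 3 lay below all knockout libraries and the other 2 control libraries above them, so the groups overlapped. The log2 fold change of Cdt1 was -0.11 (SE 0.13), and -0.23 (SE 0.09) without control library 3.

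The 6 subunits of the MCM helicase ring differed to unequal extents. Mcm5 had 10887, 16399 and 14074 normalised counts in knockout, against 17423, 21033 and 26212 in control, and a log2 fold change of -0.64 (SE 0.21), and -0.49 (SE 0.18) without control library 3. Its groups did not overlap, and control library 3 was the highest. Mcm2 had 14583, 21649 and 19846 normalised counts in knockout, against 25451, 26677 and 27364 in control. The control libraries of Mcm2 lay within 1.08-fold of each other, the knockout libraries spread 1.48-fold, and the log2 fold change was -0.52 (SE 0.16), and -0.50 (SE 0.17) without control library 3.

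Mcm3 stood at 24769, 30787 and 27272 in knockout and at 34398, 33714 and 47096 in control, and control library 3 was far above the rest. Without that library the log2 fold change of Mcm3 was -0.31 (SE 0.11), against -0.46 (SE 0.17) with it. Mcm7 stood at 12949, 19227 and 17306 in knockout, against 20262, 25121 and 22967 in control, with a log2 fold change of -0.48 (SE 0.17), -0.47 without control library 3 and -0.32 without knockout library 1. Of the annotated exon bases of Mcm7, 7.25% overlap Ap4m1 on the opposite strand, and smaller parts hold Mir25 and Mir93. Mcm4 stood at 17452, 25725 and 21824 in knockout, against 26322, 29709 and 27415 in control, and the log2 fold change was -0.38 (SE 0.16), -0.39 without control library 3 and -0.23 without knockout library 1. Knockout library 2 lay 2.27% under control library 1, so the groups of Mcm4 were separate by a narrow margin.

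Mcm6 was the subunit with the smallest difference. It had 42419, 56035 and 52720 normalised counts in knockout, against 52782, 59635 and 53070 in control. Knockout library 2 exceeded control libraries 1 and 3, so the groups overlapped, and the log2 fold change was -0.14 (SE 0.14). Without control library 3 it was -0.16, and without knockout library 1 it was -0.02. Per kilobase of the longest annotated transcript, Mcm6 was also the subunit with the highest level in knockout, at 11571 ± 1630 normalised counts per kilobase (SD, n = 3), against 12666 ± 890 in control. Mcm5 had the lowest level, at 4078 ± 819 per kilobase in knockout and 6376 ± 1307 in control (SD, n = 3 each).

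**Figure D3:**
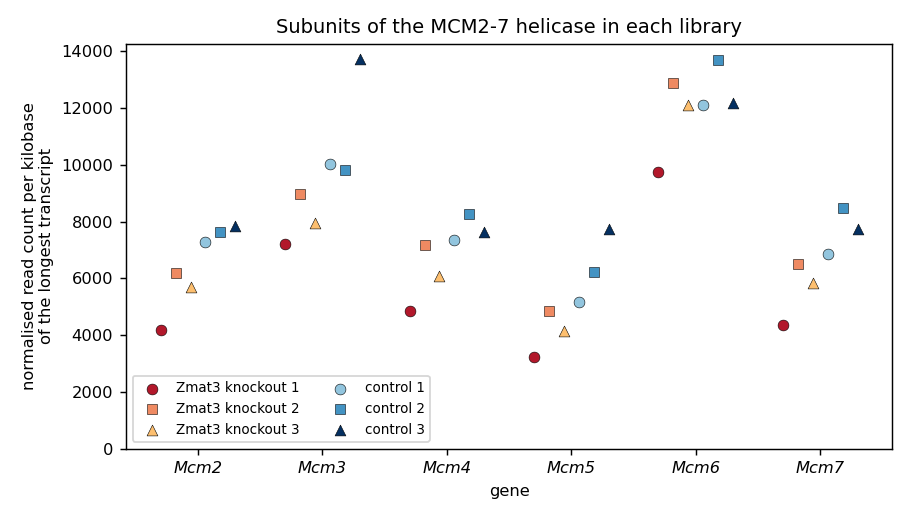
Normalised count per kilobase of the longest annotated transcript (y axis) for the 6 MCM subunits (x axis) in each library, with knockout libraries left of control libraries. For Mcm6 the points of both groups overlap, whereas for Mcm2, Mcm3, Mcm4, Mcm5 and Mcm7 all knockout points lie below all control points.

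For each of the 3 genes of helicase activation every knockout library lay below every control library, beside 14.4% of all genes. Their median log2 fold change was -0.39 (-0.29 without control library 3), and none was called by limma or DESeq2 in either set of libraries. Cdc45, which binds the loaded MCM ring as it becomes an active helicase, had 5077, 6650 and 5833 normalised counts in knockout, against 7062, 7921 and 8478 in control. All knockout libraries lay below all control libraries, and the log2 fold change was -0.42 (SE 0.14), and -0.36 (SE 0.13) without control library 3. Gins1, a subunit of the GINS complex, had 1324, 1498 and 1402 in knockout, against 1643, 1791 and 2113 in control. Its log2 fold change was -0.39 (SE 0.14), and -0.29 (SE 0.11) without control library 3, and the highest knockout library lay 8.79% under the lowest control library. Gins2, another GINS subunit, had 2770, 3912 and 3941 in knockout, against 3995, 4176 and 4506 in control. Only knockout library 1 was well below the controls there, and without it the log2 fold change of Gins2 was -0.10, against -0.27 with it and -0.22 without control library 3. Of the annotated exon bases of Gins2, 67.3% overlap Gse1 on the opposite strand, and counting that did not use strand could not tell the reads of the 2 genes apart.

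At the fork, all 7 genes for polymerases, clamp, clamp loader and single-strand binding were negative on the log2 scale, but their median was -0.20 (-0.21 without control library 3). Groups overlapped for 5 of the 7. Only Pole and Rfc4 had every knockout library below every control library, beside 14.4% of all genes. Pole, the catalytic subunit of polymerase epsilon, which copies the leading strand, had 4246, 5041 and 4492 normalised counts in knockout, against 6015, 6982 and 8975 in control. All knockout libraries were below all controls, with control library 3 highest, and the log2 fold change was -0.66 (SE 0.17), and -0.50 (SE 0.12) without control library 3. DESeq2 gave Pole an adjusted p of 0.0980 with all 6 libraries and 0.00756 without control library 3, where it called Pole lower at a log2 fold change of -0.51 (SE 0.13). Over the other DESeq2 fits with 1 library left out the adjusted p of Pole ran from 0.00288 to 0.715. In GRCm38 Pole (Entrez gene 18973) spans chr5:110286306-110337474 on the plus strand.

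The catalytic subunits of the lagging strand polymerases differed less. Pola1, of the polymerase alpha that lays down primers, had 6634, 9199 and 9074 normalised counts in knockout, against 9519, 10332 and 8516 in control. Knockout libraries 2 and 3 were above control library 3, so the groups overlapped, and the log2 fold change was -0.20 (SE 0.16). Without control library 3 the groups of Pola1 did not overlap and the value was -0.27 (SE 0.16), whereas without knockout library 1 it was -0.04. Pold1, of polymerase delta, had 7031, 7291 and 7357 in knockout, against 8828, 7949 and 7114 in control. Control library 3 lay among the knockout libraries, and the log2 fold change of Pold1 was -0.13 (SE 0.11), and -0.21 (SE 0.09) without that library.

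Pcna, the sliding clamp, had 8942, 13018 and 12254 normalised counts in knockout, against 12029, 14171 and 12210 in control. Apart from knockout library 1, the knockout values of Pcna lay inside the control range, and without that library its log2 fold change was -0.02, against -0.18 (SE 0.17) with it and -0.21 without control library 3. Rfc3, a subunit of the complex that loads the clamp, had 4223, 5152 and 4835 in knockout, against 4345, 5415 and 5181 in control. The groups overlapped, and the log2 fold change of -0.07 (SE 0.14), -0.04 without control library 3, was the smallest of the 29 genes in either set of libraries. Rfc4, of the same complex, had 3264, 3689 and 3646 in knockout, against 3713, 4680 and 3824 in control. Its groups did not overlap, although knockout library 2 lay 0.635% under control library 1. The log2 fold change of Rfc4 was -0.20 (SE 0.13), and -0.24 without control library 3. Of the annotated exon bases of Rfc4, 12.7% overlap Eif4a2 on the opposite strand. Rpa2, a subunit of the single-strand binding protein RPA, had 3632, 4848 and 4640 in knockout, against 4640, 5314 and 6564 in control, and knockout library 2 exceeded control library 1. The log2 fold change of Rpa2 was -0.33 (SE 0.18), -0.19 (SE 0.15) without control library 3 and -0.20 without knockout library 1.

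Okazaki fragments are trimmed by the flap endonuclease Fen1 and sealed by the ligase Lig1. Fen1 had 3759, 5285 and 4154 normalised counts in knockout, against 6367, 8080 and 10783 in control. All knockout libraries lay below all control libraries, with the highest of them 17.0% under the lowest control, and the control values spread 1.69-fold. Fen1 fell in knockout by DESeq2's test, with a log2 fold change of -0.93 (SE 0.26) and an adjusted p of 0.0445, and DESeq2 called 0.470% of all genes lower in that fit. The limma value for Fen1 was -0.92 (SE 0.22, limma adjusted p = 0.371), and -0.72 (SE 0.17) without control library 3. Without control library 3 DESeq2 gave Fen1 -0.72 (SE 0.19) with an adjusted p of 0.00671, and over the other fits with 1 library left out the adjusted p ran from 0.000492 to 0.589. In GRCm38 Fen1 (Entrez gene 14156) spans chr19:10199132-10204169 on the minus strand. An annotated antisense gene, Gm10143, overlaps 78.8% of its exon bases on the opposite strand, and counting that did not use strand could not tell the reads of the 2 genes apart.

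Lig1 had 11722, 15863 and 14199 normalised counts in knockout, against 17633, 18788 and 18681 in control. The groups did not overlap, and the 3 control libraries lay within 1.07-fold of each other. Its log2 fold change was -0.41 (SE 0.14), and -0.40 (SE 0.14) without control library 3, with a DESeq2 adjusted p of 0.254 and 0.105 in the 2 fits.

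The 3 genes of nucleotide supply had the lowest median of the steps, -0.80 (-0.61 without control library 3), and also a wide spread between control libraries. Rrm2, the small subunit of ribonucleotide reductase, which makes deoxynucleotides from ribonucleotides and is produced mainly in S phase, had 7944, 13045 and 10224 normalised counts in knockout, against 14298, 18758 and 37663 in control. The groups did not overlap, and control library 3 stood 2.28-fold above the mean of control libraries 1 and 2. The log2 fold change was -1.08 (SE 0.37), and -0.68 (SE 0.22) without control library 3. DESeq2 gave Rrm2 an adjusted p of 0.0980 with all 6 libraries and called it lower without control library 3, at an adjusted p of 0.0447. Over the other fits with 1 library left out the adjusted p ran from 0.00176 to 0.693. In GRCm38 Rrm2 (Entrez gene 20135) spans chr12:24708241-24714146 on the plus strand.

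Rrm1, the large subunit of the same enzyme, had 21706, 26132 and 23162 normalised counts in knockout, against 25973, 30812 and 43977 in control. Knockout library 2 was just above control library 1, so the groups overlapped, and the log2 fold change was -0.47 (SE 0.21), and -0.26 (SE 0.12) without control library 3. Tyms, thymidylate synthase, had 3024, 7680 and 6101 in knockout, against 6308, 10070 and 11702 in control. Knockout library 1 was at 32.3% of the control mean, the lowest share of any of the 29 genes in any knockout library, while knockout library 2 exceeded control library 1. The log2 fold change of Tyms was -0.80 (SE 0.38), -0.61 (SE 0.41) without control library 3 and -0.40 without knockout library 1. The pseudogene Tyms-ps held between 23.5 and 77.6 normalised counts in knockout and between 84.1 and 144.0 in control. Reads may have been split between Tyms and Tyms-ps, which was not tested.

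Of the 4 genes of S-phase entry, only E2f2 had every knockout library below every control library, beside 14.4% of all genes. None of the 4 was called by either tool with all 6 libraries, and the median log2 fold change was -0.32 (-0.27 without control library 3). Ccne1, cyclin E1, an activator of Cdk2, had 3351, 5854 and 5183 normalised counts in knockout, against 5409, 7313 and 9931 in control. Knockout library 2 exceeded control library 1, and the log2 fold change was -0.65 (SE 0.29), -0.43 (SE 0.25) without control library 3 and -0.41 without knockout library 1. Ccne2, cyclin E2, had 1943, 3345 and 2733 in knockout, against 2443, 3805 and 4961 in control. Knockout libraries 2 and 3 were both above control library 1, and the log2 fold change of Ccne2 was -0.46 (SE 0.31), -0.22 (SE 0.27) without control library 3 and -0.25 without knockout library 1. Of the annotated exon bases of Ccne2, 17.4% overlap Ints8 on the opposite strand.

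The list also holds the E2F activator genes E2f1 and E2f2. E2f1 had 5412, 7633 and 7220 normalised counts in knockout, against 8697, 7973 and 6263 in control. Control library 3 lay between the knockout libraries, and the log2 fold change was -0.18 (SE 0.18), -0.32 (SE 0.16) without that library and -0.03 without knockout library 1. E2f2 had 1112, 1179 and 1164 in knockout, against 1305, 1332 and 1293 in control, with a log2 fold change of -0.19 (SE 0.12), and -0.19 (SE 0.11) without control library 3. The groups of E2f2 were tight and separate, at 1152 ± 35.2 in knockout and 1310 ± 19.8 in control (SD, n = 3 each).

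Uhrf1, which brings the maintenance methyltransferase Dnmt1 to newly copied DNA, had the widest gap between the groups relative to its level. It had 19563, 20744 and 19630 normalised counts in knockout, against 25237, 26912 and 26249 in control. The highest and lowest libraries lay within 1.06-fold of each other in knockout and within 1.07-fold in control, and the highest knockout library lay 17.8% under the lowest control library, the largest such gap of the 29 genes. The log2 fold change was -0.39 (SE 0.10), and -0.38 (SE 0.09) without control library 3. DESeq2 gave Uhrf1 an adjusted p of 0.132 with all 6 libraries and 0.00179 without control library 3, and from 0.0354 to 0.734 over the other fits with 1 library left out. In GRCm38 Uhrf1 (Entrez gene 18140) spans chr17:56303321-56323486 on the plus strand. Slbp, which binds the stem-loop of histone mRNAs, had 6305, 10132 and 9039 normalised counts in knockout, against 9282, 11645 and 10798 in control. Its groups overlapped, because knockout library 2 was above control library 1, and the log2 fold change was -0.34 (SE 0.20), -0.32 without control library 3 and -0.14 without knockout library 1.

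Which genes DESeq2 called depended on the libraries. Fen1 was called with all 6 libraries, and Pole, Fen1, Rrm2 and Uhrf1 were called lower without control library 3, where DESeq2 called 2.87% of all genes lower and limma 0.0271%, none of them among the 29. Without control library 1 DESeq2 called 8 of the 29 lower, namely Cdc6, Mcm5, Pole, Fen1, Rrm1, Rrm2, Ccne1 and Uhrf1, beside 7.64% of all genes. DESeq2 called none of the 29 without knockout library 1 (0.280% of all genes called lower), knockout library 2 (0.101%), knockout library 3 (0.0766%) or control library 2 (0.383%).

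A further 88 genes of DNA replication or its control, listed by the same steps, were measured beside the 29. Of the 88, 74 were negative on the log2 scale, the median being -0.30 (-0.20 without control library 3). Knockout libraries lay entirely below the controls for 39 of the 88, beside 14.4% of all genes. The 88 include 19 genes listed under S-phase entry, such as D cyclins, Cdk4, Cdk6 and the Rb family. Of those 19, 12 were negative and 7 positive. Neither limma nor DESeq2 called any of the 88 with all 6 libraries, and 28 had an unadjusted limma p under 0.05, beside 1948 of the 14777 genes tested. Without control library 3, where DESeq2 called 2.87% of all genes lower, it called 10 of the 88, all lower, which were Mcm10, Ticrr, Mtbp, Recql4, Clspn, Top2a, E2f4, E2f7, Ccna2 and Dnmt1. Among these, Mcm10, Ticrr, Mtbp and Recql4 act in turning the licensed helicase on.

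Recql4, a helicase needed for initiation, had 1116, 1081 and 1012 normalised counts in knockout, against 1512, 1635 and 2648 in control, with a log2 fold change of -0.81 (SE 0.23), and -0.56 without control library 3. Dnmt1, the maintenance DNA methyltransferase, had 34411, 34351 and 30684 in knockout, against 43821, 44119 and 46159 in control. Like its partner Uhrf1 it was even within each group, and its log2 fold change was -0.43 (SE 0.11). Top2a, the topoisomerase that untangles copied DNA, had 38115, 37321 and 32418 in knockout, against 47355, 52456 and 61795 in control. Its groups did not overlap, and its log2 fold change was -0.58 (SE 0.14).

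By the rule of the smallest unadjusted p in each list, Mcmbp, Mcm8 and Orc2 are the genes named from the licensing list. Their log2 fold changes were -0.37, -0.31 and -0.61 (Orc2 -0.29 without control library 3). The remaining genes named from the activation list are Ticrr and Mtbp, at -0.63 and -0.48. For the fork the remaining genes are Atad5, which unloads the clamp, at -0.47, and Clspn, a fork and checkpoint mediator, at -0.67. In Okazaki maturation Dna2, Rnaseh2c and Lig3 had log2 fold changes of -0.47, -0.27 and -0.39, and that of Lig3 was -0.20 without control library 3. Among nucleotide genes thymidine kinase Tk1, deoxycytidine kinase Dck and the diphosphate kinase Nme1 had log2 fold changes of -0.64, -0.40 and -0.82, and that of Nme1 was -0.33 without control library 3. In S-phase entry the repressor E2f7, E2f4 and the activator E2f3 had log2 fold changes of -0.63, -0.46 and -0.32. The histone chaperone genes Chaf1a and Asf1b, of chromatin assembly behind the fork, had -0.39 and -0.78, and that of Asf1b was -0.51 without control library 3. The 14 genes with positive values included Pold4, the small subunit of polymerase delta, at 0.83, and Rb1, the retinoblastoma protein gene, at 0.29, and neither was called.

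**Figure D4:**
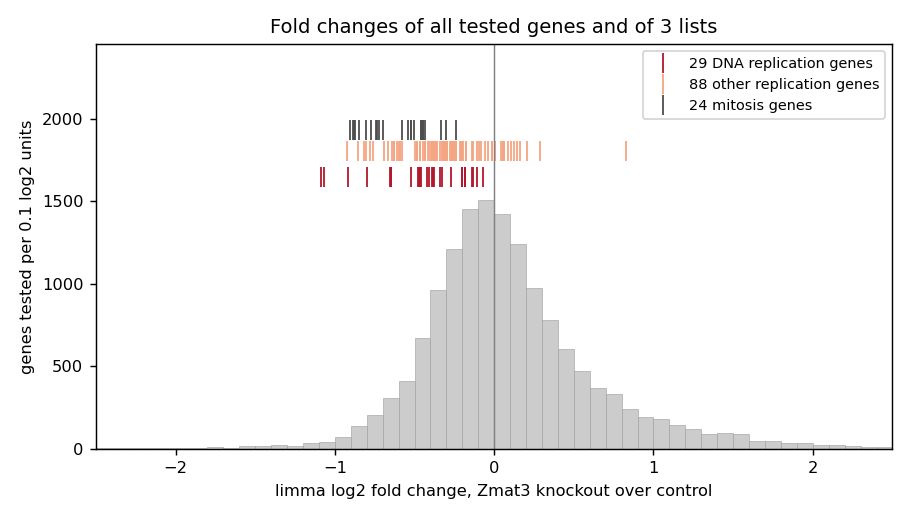
Histogram of the limma log2 fold changes, knockout over control, of the 14777 genes tested (x axis cropped, y axis genes per bin), with a tick above it for each of the 29 DNA replication genes, the 88 other replication genes and the 24 mitosis genes. All ticks of the 29 and of the mitosis genes lie left of 0, while 14 of the 88 lie right of it.

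Mitosis genes were set beside the replication genes because both mark cycling cells. All 24 were negative on the log2 scale, the median being -0.56 (-0.34 without control library 3), and 19 had knockout libraries entirely below the controls, beside 14.4% of all genes. Mki67, a proliferation marker, had 14546, 11552 and 10183 normalised counts in knockout, against 16999, 22378 and 22341 in control, with a log2 fold change of -0.77 (SE 0.18). Foxm1, a transcription factor of late cell cycle genes, had a log2 fold change of -0.81 (SE 0.20), and Kif23, a kinesin of cell division, -0.70 (SE 0.18). Neither tool called a mitosis gene with all 6 libraries, and DESeq2 called 10 lower without control library 3, beside 2.87% of all genes.

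The knockout libraries ranked differently in the 2 lists. The mean log2 level of the 29 replication genes, relative to the control mean, was -0.69, -0.23 and -0.38 in knockout libraries 1, 2 and 3, against -0.18, 0.03 and 0.14 in control libraries 1, 2 and 3. For the mitosis genes it was -0.55, -0.61 and -0.67 in the knockout libraries, against -0.34, -0.09 and 0.42 in the control libraries. Knockout library 1 was thus the lowest knockout library for replication and the highest for mitosis. By step, knockout library 1 stood at -0.75 for licensing, -0.44 for the fork and -1.21 for nucleotides, and knockout library 2 at -0.25, -0.13 and -0.43 for the same 3 steps. Knockout library 3 lay between them, at -0.43, -0.19 and -0.72. Control library 1 stood at -0.14, -0.10 and -0.48, below control library 2, at 0.03, 0.08 and -0.05, and control library 3 stood at 0.11, 0.03 and 0.53. In nucleotides control library 1 was therefore below knockout library 2, and in the other 2 steps it was above it.

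**Figure D5:**
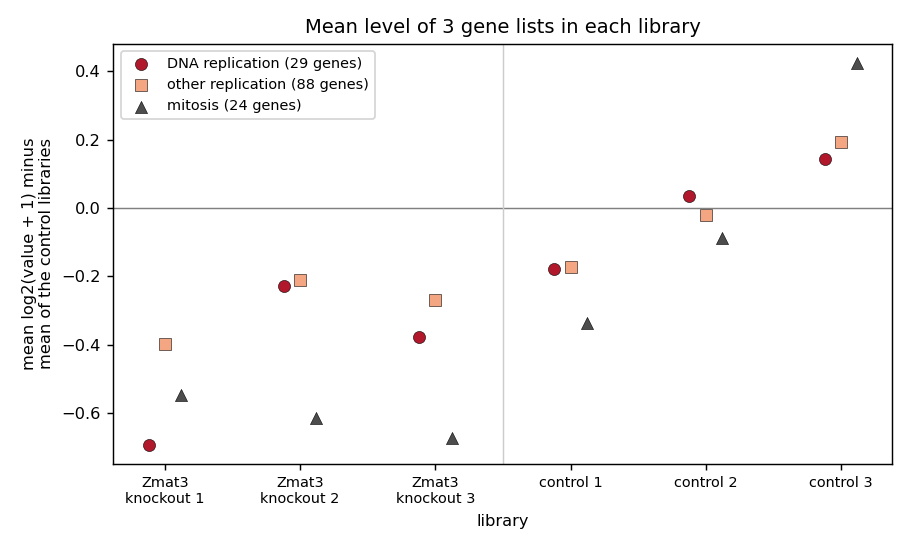
Mean log2(normalised count + 1) minus the mean of the control libraries (y axis) for the 29 DNA replication genes, 88 other replication genes and 24 mitosis genes in each library (x axis). Replication genes are lowest in knockout library 1, at -0.69, whereas mitosis genes are lowest in knockout library 3, at -0.67.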

How the data were processed

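Total RNA of 6 cultured fibroblast libraries was extracted with a QIAGEN kit and prepared with Illumina TruSeq v2, which the labels' protocols state. The submitters' processing notes name STAR, mm10 and DESeq2. Of the annotation, read counter, strand setting and versions, none is given in the sources used here.

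The authors deposited a signal for each gene in each library, which behaves as a read count scaled by a size factor of its library. Whole reads were recovered, since 100% of values were whole multiples of 1 read within 0.001. Of 6263 rows with no name (1.90% to 2.23% of reads), 4376 were named by RefSeq, 26 date-like symbols were restored, and 93% of rows matched RefSeq by Entrez number.

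Genes were kept by filterByExpr (minimum 10). Limma 3.58.1 (trend, robust; R 4.3.3) compared log2(value + 1) between 3 knockout and 3 control libraries in a two-sided test, adjusted by Benjamini-Hochberg over 14777 genes at 0.05. Such fold changes understate the change of low genes. DESeq2 1.42.0 (all rows) and edgeR 4.0.16 (quasi-likelihood) ran on the recovered reads as alternatives, and blank DESeq2 adjusted p-values stayed blank. The spread between libraries includes differences between guides. With 3 libraries against 3, an exact permutation test cannot go below 0.1, so none is given.

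All 29 genes, Zmat3, and the 3 genes with the smallest unadjusted limma p in each further list were named by rule. Other genes named in lists of calls or as positive were chosen after their values were seen. The 29 genes and all lists were chosen with earlier results of these data known. Exon overlaps, gene positions and transcript lengths came from GENCODE vM21 (GRCm38). Alternatives changed the test, scaling, filter, pseudocount, library weights, replicate block and the libraries used. The tests were tried on simulated reads.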

Additional observations from a re-analysis of the deposited data

How the results depend on the processing

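The number of genes called over all genes was 129 with DESeq2 and 2404 with limma library weights, against 0 in limma. It ran from 0 to 5 in limma with 1 library left out (5 without control library 3, also in edgeR), and in DESeq2 it was 61, 24 and 27 without knockout libraries 1, 2 and 3 and 2138, 86 and 711 without control libraries 1, 2 and 3, and it was 12 in limma without knockout library 1 and control library 3. Of the 29 genes 1 was called with DESeq2, and from 0 to 8 in DESeq2 with 1 library left out (4 without control library 3, 8 without control library 1). With library weights 12 were called, all lower, beside 1217 of all 14777 genes called lower. The weights were 0.527, 2.75 and 3.17 for knockout libraries 1, 2 and 3, and 0.581, 3.19 and 0.117 for control libraries 1, 2 and 3. The 12 were Cdc6, Mcm2, Mcm5, Mcm7, Cdc45, Gins1, Pole, Rfc4, Fen1, Lig1, Rrm2 and Uhrf1. The cause of these differences in count was not tested. Zmat3 passed the threshold with DESeq2 (-1.24, adjusted p = 0.0444), with library weights (-1.61, adjusted p = 0.0125), in DESeq2 without knockout library 1 (-1.77) or control library 1 (-1.23), and in limma without knockout library 1 and control library 3 (-1.74, adjusted p = 0.0121), but not in DESeq2 without control library 2 or 3 or knockout library 2 or 3. With 1 library left out the limma value of Zmat3 ran from -1.77 to -1.16. Rfc3 was the only one of the 29 to reverse, at 0.0094 in limma and 0.0059 in DESeq2 without knockout library 1, and at 0.041 in limma without knockout library 1 and control library 3, over a range from -0.17 to 0.0094 in limma with 1 library left out. Of 696 values of the 29 genes under 24 alternatives, 668 kept direction and side of the threshold, 25 newly passed it and 3 reversed. Scaling by TMM or by the median left the median of all genes at 0.02 and -0.01. Same-numbered libraries deviated together with correlations of 0.264, 0.198 and -0.0172, while knockout library 3 and control library 2 did so at 0.215. These values do not settle whether the numbers pair the libraries, and the main test used no pairing. With the replicate block limma called 0 genes and the median of the 29 was -0.39. Counts are high for all 29 genes, so the spread between libraries limits precision, not depth.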

Other observations

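Ratios within a library do not depend on its scaling. The pairs given here were chosen after the values were seen, so they carry no test. The ratio of Rrm2 to Rrm1, the subunits of ribonucleotide reductase, was 0.366, 0.499 and 0.441 in knockout libraries 1, 2 and 3, against 0.551, 0.609 and 0.856 in control libraries 1, 2 and 3. All knockout libraries lay below all controls, although the groups of Rrm1 overlapped. The ratio of Mcm5 to Mcm6 was 0.257, 0.293 and 0.267 in knockout, against 0.330, 0.353 and 0.494 in control, again without overlap. That of Fen1 to Lig1 was 0.321, 0.333 and 0.293 in knockout, against 0.361, 0.430 and 0.577 in control. That of Ccne1 to Ccne2 was 1.72, 1.75 and 1.90 in knockout, against 2.21, 1.92 and 2.00 in control. The groups of Fen1 to Lig1 and of Ccne1 to Ccne2 did not overlap, the second by a narrow margin. Knockout library 1, the lowest library in 28 of the 29 genes, was not the lowest in the ratio of Fen1 to Lig1.

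In other pairs the groups overlapped. The ratio of Pole to Pold1 was 0.604, 0.691 and 0.611 in knockout, against 0.681, 0.878 and 1.26 in control. The ratio of Cdc6 to Cdt1 was 0.246, 0.466 and 0.350 in knockout, against 0.403, 0.647 and 1.13 in control, and knockout library 2 exceeded control library 1. The ratio of Cdt1 to its inhibitor gene Gmnn was 2.07, 1.76 and 1.68 in knockout, against 2.29, 1.63 and 1.25 in control. E2F words were found in the promoters of 14 of 70 other replication genes with a window and of 1 of 20 mitosis genes, against 7 of 24 among the DNA replication genes and 2.72% of protein-coding genes.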
